A study of Arabidopsis thaliana with 60 samples.

Results

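The last steps of gibberellin synthesis, the first step of its breakdown and 1 of its receptors were followed through an immune time course by the read counts of 8 genes. The genes were chosen by their identifiers, with earlier results of these data known, and make up 8 of the 25036 genes in the count table. They are GA20OX1 (AT4G25420), GA20OX2 (AT5G51810) and GA20OX3 (AT5G07200), which encode gibberellin 20-oxidases, GA3OX1 (AT1G15550), a gibberellin 3-oxidase, GA2OX1 (AT1G78440), GA2OX6 (AT1G02400) and GA2OX8 (AT4G21200), gibberellin 2-oxidases, and GID1A (AT3G05120), a gibberellin receptor. Leaves of 4-week-old Arabidopsis thaliana Col-0 plants, all of the genotype dde2 ein2 pad4 sid2 Ed-AvrRpt2, were infiltrated with 1 µM flg22 (no ethanol is listed for it), with 10 µM estradiol (Ed) and 0.1% ethanol, with flg22 and Ed together in 0.1% ethanol, or with a Mock solution of 0.1% ethanol. They were harvested 60, 120, 180 or 300 min later. Leaves harvested at 0 min were left untouched, whichever treatment their label names. Each of the 20 groups of treatment and time had 3 libraries, 1 from each of 3 independent experiments, and each library pooled the leaves of 2 plants.

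Gibberellins are growth hormones made from a diterpene precursor. In the cytosol, 20-oxidases and then 3-oxidases turn inactive gibberellins into the active forms, and 2-oxidases add a hydroxyl group that inactivates them; GA2OX8 acts on the longer carbon skeletons of the early intermediates. Active gibberellin binds GID1 receptors, which then bring about the destruction of the DELLA proteins, repressors of growth that also favour jasmonate responses in pathogen-challenged leaves. The 2 elicitors act through separate receptors. The peptide flg22, from bacterial flagellin, is bound at the cell surface by the receptor kinase FLS2. AvrRpt2, a protease of Pseudomonas syringae that these plants make from an estradiol-inducible transgene, is sensed inside the cell through the resistance protein RPS2. The mutations shared by all groups remove enzymes or signalling proteins of the jasmonate (dde2), ethylene (ein2), salicylate (sid2) and PAD4 (pad4) branches of immunity, so no group shows the response of a wild-type leaf.

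The libraries held between 1458920 and 4673355 counts of transcript 3′ ends. Levels are given in CPM, the usual scale of counts relative to library size, after scaling by trimmed mean of M-values factors, on which 1 count was worth between 0.201 and 0.733 CPM. Of the 8 genes, 7 passed the filter on low counts and were tested among 16763 genes. GA20OX2, with 81 counts over all 60 libraries, was not. Marker genes of mesophyll (5 of 5), epidermis (6 of 6), guard cells (5 of 5) and vasculature (5 of 5) all had counts. In 4 libraries of experiment 2 the clock gene LHY was at odds with the labelled time. Among untouched leaves, LHY gave 106 CPM under the label Mock 0 min and 4.64 CPM under flg22 0 min, where the 10 other libraries ranged from 252 to 391 CPM. Under the label Mock 60 min it gave 250 CPM, beside 82.5 to 182 CPM in the 11 others of that time, and under Mock 300 min 316 CPM, beside 1.53 to 4.65 CPM in the 11 others. The labels were kept as deposited, and many results that rest on these libraries are given with and without them. All groups share an estimate of the spread, so leaving these libraries out also changes the error in comparisons that contain none of them.

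The 300 bases before the annotated start of the 3 genes on which most of the elicitor results turn (GA2OX6, GA3OX1 and GA20OX3) are shown to put the genes in their genomic context, from the RefSeq assembly TAIR10.1. GA2OX6 lies on chromosome 1 at 486800 to 489651 on the plus strand, GA3OX1 on chromosome 1 at 5344388 to 5346342 on the minus strand, and GA20OX3 on chromosome 5 at 2243553 to 2245339 on the minus strand. The windows shown are chr1:486500-486799 (plus strand), chr1:5346343-5346642 (minus strand) and chr5:2245340-2245639 (minus strand), each 5′ to 3′ in the direction of the gene. Capitals mark TTGAC, the core of the W-box that WRKY factors bind, on either strand.
GA2OX6: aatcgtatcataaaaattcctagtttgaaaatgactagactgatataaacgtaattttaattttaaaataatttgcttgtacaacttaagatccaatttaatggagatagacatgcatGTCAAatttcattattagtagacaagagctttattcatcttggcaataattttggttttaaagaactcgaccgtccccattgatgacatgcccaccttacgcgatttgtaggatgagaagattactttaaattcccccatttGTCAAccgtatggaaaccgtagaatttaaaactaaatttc
GA3OX1: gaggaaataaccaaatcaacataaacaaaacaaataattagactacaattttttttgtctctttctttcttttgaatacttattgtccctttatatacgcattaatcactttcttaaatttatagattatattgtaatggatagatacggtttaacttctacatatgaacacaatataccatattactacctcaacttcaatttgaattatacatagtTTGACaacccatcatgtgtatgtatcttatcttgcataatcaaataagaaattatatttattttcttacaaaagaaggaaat
GA20OX3: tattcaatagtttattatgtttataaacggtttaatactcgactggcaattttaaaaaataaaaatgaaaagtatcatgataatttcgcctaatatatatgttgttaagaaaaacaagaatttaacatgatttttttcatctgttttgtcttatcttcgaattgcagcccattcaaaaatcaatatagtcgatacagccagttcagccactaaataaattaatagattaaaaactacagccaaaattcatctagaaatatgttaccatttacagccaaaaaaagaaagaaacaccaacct

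The core stood at 182 to 178 and again at 40 to 36 bases before the start of GA2OX6, both times on the opposite strand, and at 82 to 78 bases before the start of GA3OX1. The GA20OX3 window held none. Of the 8 genes, 6 had the core in this window, beside 50.4% of 27438 promoters of the same length. Of the longer forms, which contain the core, TTGACT was present in 1 gene (GA2OX1; 21.9% of all promoters) and TTGACC in 0 (14% of all promoters). The evening element AAATATCT (5.64% of all promoters), the CCA1-binding site AAAAATCT (7.94%) and the G-box CACGTG (7.09%), searched on both strands, were found in 0 of the 8 windows. The core was added to the motifs searched after the data had been seen, and a match of letters does not show that a factor binds there.

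**Figure D1:**
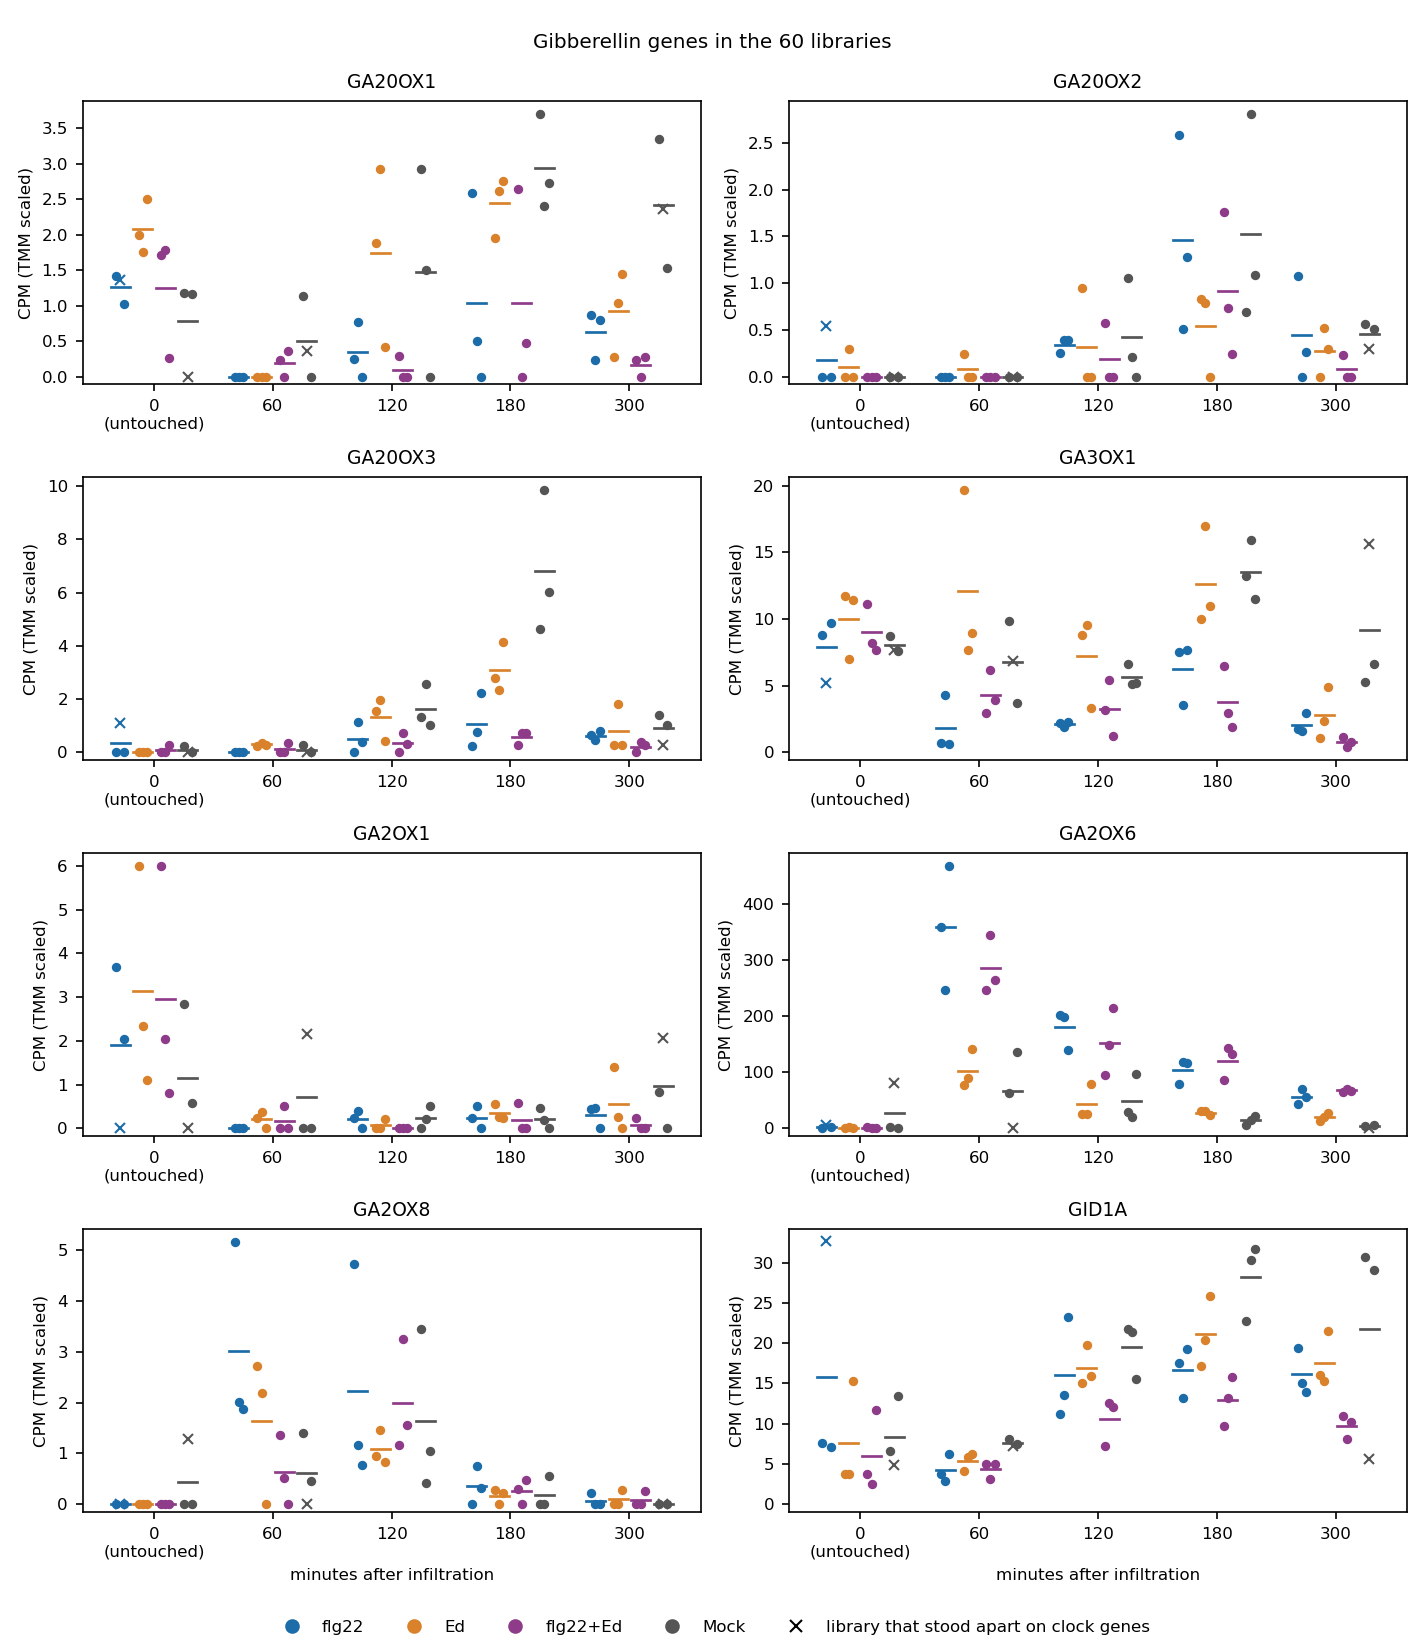
Level of each of the 8 genes in every library, in CPM on a linear axis of its own, by minutes after infiltration; points are libraries, short lines are means of 3, and crosses mark the 4 libraries that stood apart on LHY. GA2OX6 was highest at 60 min in flg22 (358 CPM) and flg22+Ed (284 CPM), and GA20OX3 peaked at 180 min in Mock (6.83 CPM).

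Mock infiltration, set against untouched leaves, shows how the genes moved without either elicitor. Relative to the 12 untouched libraries, the 2-oxidase genes rose (GA2OX6 at 60 to 180 min, GA2OX8 at 120 min), the 20-oxidase gene GA20OX3 rose at 120 and 180 min, and the receptor gene GID1A rose from 120 min on. A further 2-oxidase gene, GA2OX1, fell at 120 min. In order of time, 1, 4, 3 and 1 of the 7 genes tested were higher, where 8.72%, 13.7%, 8.75% and 4.49% of all genes tested were higher. At 120 min 1 was lower, beside 6.92% of all genes. Infiltration and the hours that passed since the 0 min harvest cannot be told apart in this comparison.

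GA2OX6, whose enzyme inactivates bioactive gibberellins, had 63.3, 0.359 and 136 CPM in the Mock libraries of 60 min (experiments 1, 2 and 3), against a median of 1.41 CPM (0.256 to 81.2 CPM) in untouched leaves. The low value at 60 min and the highest untouched value both belong to libraries that stood apart. Without the 4 libraries, the 2 Mock values at 60 min lay far above the 10 untouched values, which reached 3.07 CPM. The log2 fold change was 4.38 ± 0.63 (± is the error worked back from the F statistic of edgeR's quasi-likelihood test; adjusted p = 1.64e-05) and 6.25 ± 0.45 without the 4 libraries (adjusted p = 7.67e-15). At 300 min Mock leaves had 4.18, 0.884 and 6.64 CPM, and the log2 fold change was 0.23 ± 0.86 (adjusted p = 0.943), or 2.00 ± 0.67 (adjusted p = 0.0204) without the 4 libraries. In order of time, mean Mock levels were 66.4 ± 67.6, 48.8 ± 41.9, 14.3 ± 8.36 and 3.90 ± 2.89 CPM (SD, n = 3). The call at 180 min (2.13 ± 0.72, adjusted p = 0.0387) was lost when any 1 of 7 of its 15 libraries was left out. The highest adjusted p, 0.204, was reached without the Mock 180 min library of experiment 3. The calls at 60 and 180 min were lost with limma-voom (adjusted p = 0.0641 and 0.0808) and in a fit of only the groups compared (0.167 and 0.153).

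GA20OX3, which encodes an enzyme that supplies precursors of active gibberellin, was close to absent before infiltration. It had 4.62, 9.85 and 6.01 CPM in the Mock libraries of 180 min (20, 49 and 11 counts), against 6 counts in the 12 untouched libraries together. Of these 6, 4 were in the library labelled flg22 0 min of experiment 2. The 2 groups did not overlap. GA20OX3 rose by 3.77 ± 0.74 on the log2 scale at 120 min (adjusted p = 0.000296) and by 5.73 ± 0.58 at 180 min (adjusted p = 1.11e-08). At 300 min the difference of 2.83 ± 0.88 missed the threshold (adjusted p = 0.0509; 0.00262 without the 4 libraries, and 0.0358 with the experiment as a block). The rise was brief in Mock leaves, whose mean at 300 min was 0.904 ± 0.559 CPM (SD, n = 3).

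GID1A, the receptor gene, averaged 28.2 ± 4.88 CPM in Mock leaves at 180 min (SD, n = 3) and 9.44 ± 8.42 CPM in untouched leaves (SD, n = 12). All 3 Mock libraries of 180 min were above 11 of the 12 untouched ones, the exception at 32.7 CPM being the library labelled flg22 0 min of experiment 2. GID1A rose by 1.18 ± 0.36, 1.68 ± 0.34 and 1.3 ± 0.36 on the log2 scale at 120, 180 and 300 min (adjusted p = 0.0157, 0.000764 and 0.0228). Without the 4 libraries that stood apart the rise was 1.37, 1.88 and 1.93 (adjusted p = 0.000206, 9.32e-07 and 6.14e-06). Mock and untouched values then did not overlap at these times. With the 4 libraries kept, the calls at 120 and 300 min were each lost without either of 2 Mock libraries, those of experiments 1 and 2 at 120 min (adjusted p = 0.0729 and 0.075) and those of experiments 1 and 3 at 300 min (0.617 and 0.356). Fitted with only the groups compared, they were lost as well (0.143 and 0.436), and limma-voom lost the call at 300 min (0.0612). At 60 min the difference was -0.19 ± 0.42 (adjusted p = 0.842).

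GA2OX1, a second enzyme of gibberellin inactivation, had 0, 1 and 1 counts in the Mock libraries of 120 min, against 95 counts in the 12 untouched libraries together, where it ranged from 0 to 6 CPM. The ratio of the summed levels was 0.0826, with a 95% counting interval of 0.00985 to 0.307. The test passed at 120 min only (adjusted p = 0.0364). This call was lost when any 1 of 7 of its 15 libraries was left out (adjusted p up to 0.185, without the Mock 0 min library of experiment 1), with DESeq2 (0.0619), with limma-voom (0.0911) and in a fit of only the groups compared (0.123). At 180 min the adjusted p was 0.0579, and 0.0265 with the experiment as a block. Both untouched libraries at 0 counts were among the 4 that stood apart; without these, the adjusted p was 0.00329 at 60 min, 0.00211 at 120 min and 0.00367 at 180 min. GA2OX8, the 2-oxidase of early intermediates, had 13, 2 and 2 counts in the Mock libraries of 120 min, against 5 counts in all untouched libraries, every one under the label Mock 0 min of experiment 2. Its rise at 120 min was 4.56 ± 1.03 on the log2 scale (adjusted p = 0.00148), and the adjusted p was 0.0881 without the Mock library of experiment 1. The difference at 60 min was 3.33 ± 1.22 (adjusted p = 0.0801; 0.00669 without the 4 libraries). GA20OX1 and GA3OX1 passed the test at no time after Mock infiltration, with log2 fold changes between -1.08 and 1.22 and between -0.61 and 0.65.

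**Figure D2:**
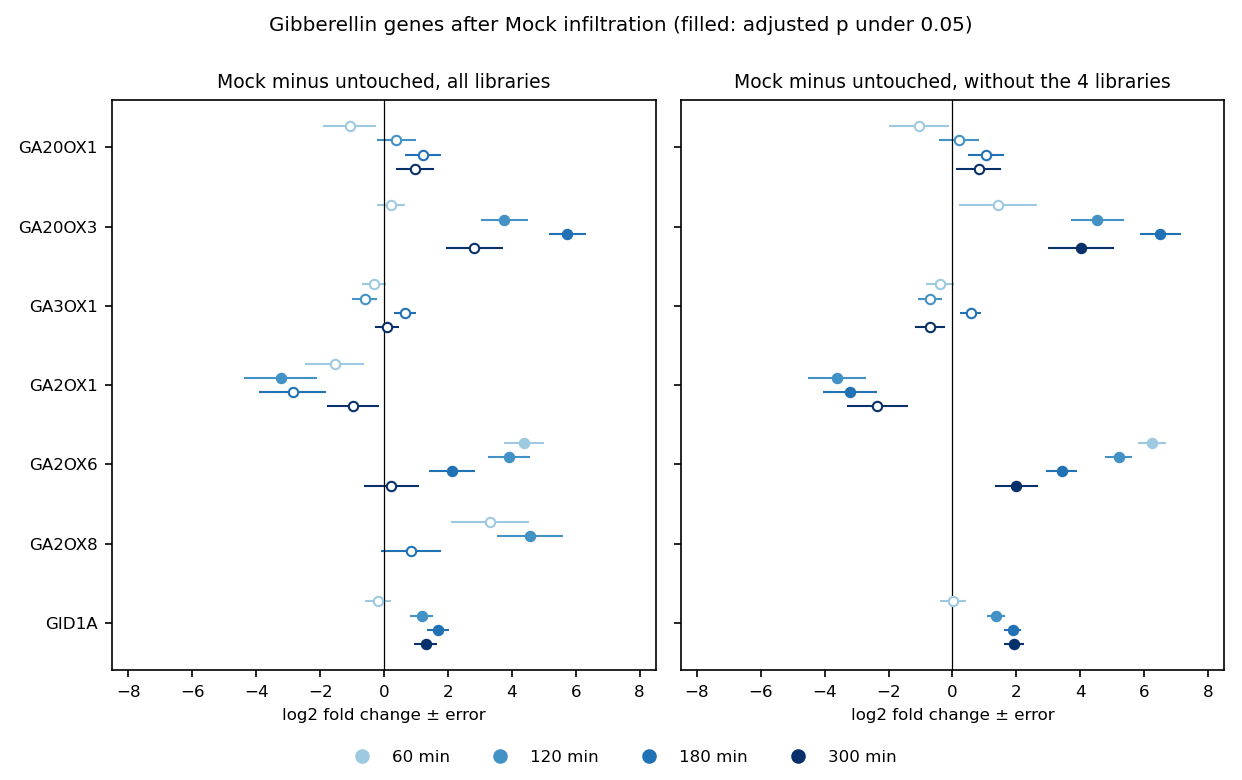
Log2 fold change of Mock at each time over the untouched leaves for the 7 tested genes, with its error, for all libraries (left) and without the 4 libraries that stood apart on LHY (right). Filled points have an adjusted p under 0.05, and points where 1 of the groups had 0 counts are not drawn. GA20OX3 at 180 min lies farthest to the right in both panels (5.73 and 6.50), and GA2OX6 at 60 min is at 4.38 in the left panel and 6.25 in the right one.

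Leaves given flg22 alone were set against Mock leaves of the same time. The 2-oxidase gene GA2OX6 was higher at 180 and 300 min, GA20OX3 lower at 180 min and GA3OX1 lower at 60 and 300 min. Of the 7 genes tested, 1 was lower at 60 min (GA3OX1; 3.38% of all genes were lower), and 0 passed at 120 min in either direction (10.2% of all genes did). Later, 1 was higher and 1 lower at 180 min (14% and 8.17% of all genes), and 1 was higher and 1 lower at 300 min (19.2% and 20.9%). At 300 min the 2 called genes of 7 thus stand beside 40.1% of all genes. All comparisons with Mock share the same Mock libraries.

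GA2OX6 had 359, 247 and 467 CPM in flg22 leaves at 60 min and 43.6, 70.3 and 55.8 CPM at 300 min, against the Mock values given above. No flg22 library overlapped a Mock library of the same time. Its log2 fold changes were 2.44 ± 0.84, 1.91 ± 0.83, 2.91 ± 0.89 and 3.94 ± 1.00 in order of time (adjusted p = 0.0558, 0.142, 0.0141 and 0.00146). The level was higher in 3 of 3 experiments at each time. Without the 4 libraries the adjusted p was 0.0293, 0.00309, 1.21e-05 and 5.27e-05 at these times. None of the 4 was in the groups of 120 and 180 min. There the differences hardly moved and their errors fell, to 1.93 ± 0.47 and 2.96 ± 0.5 on the log2 scale. With the experiment as a block GA2OX6 passed at 60 min as well (adjusted p = 0.0367), and at 180 min the call was lost without the Mock library of experiment 1 (adjusted p = 0.0926). Its flg22 levels, like those in Mock, were highest at 60 min, with means of 358 ± 110, 180 ± 34.8, 104 ± 22 and 56.5 ± 13.4 CPM (SD, n = 3) in order of time.

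GA20OX3 had 0.235, 0.762 and 2.25 CPM in flg22 leaves at 180 min (1, 3 and 7 counts), against 4.62, 9.85 and 6.01 CPM in Mock leaves. All flg22 values were below all Mock values. GA20OX3 changed by -2.74 ± 0.64 on the log2 scale (adjusted p = 0.00159; 0.000529 without the 4 libraries). The peak that Mock leaves showed at that time had no counterpart of its size in flg22 leaves at any time, where the mean was at most 1.08 ± 1.04 CPM (SD, n = 3).

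GA3OX1, whose enzyme makes the bioactive forms, had 1.73, 1.60 and 2.94 CPM in flg22 leaves at 300 min, against 5.30, 15.6 and 6.64 CPM in Mock leaves. The groups did not overlap, and the highest Mock value belongs to a library that stood apart. The log2 fold change was -2.16 ± 0.52 (adjusted p = 0.00094), and -1.45 ± 0.60 (adjusted p = 0.0486) without the 4 libraries. At 60 min it was -1.70 ± 0.57 (adjusted p = 0.0489; 0.104 without the 4 libraries, and up to 0.249 without 1 of the flg22 libraries of experiments 1 and 3 or the Mock libraries of experiments 1 and 2). The values overlapped, with 0.688, 4.30 and 0.622 CPM in flg22 leaves and 9.84, 6.83 and 3.73 CPM in Mock leaves. At 120 and 180 min GA3OX1 was lower in 3 of 3 experiments without passing the test, at -1.37 ± 0.56 and -1.13 ± 0.46 on the log2 scale (adjusted p = 0.117 and 0.069). GA20OX1 at 300 min passed with the experiment as a block (-1.91, adjusted p = 0.0459), and missed the threshold without it (-1.94 ± 0.82, adjusted p = 0.0577).

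After Ed, which induces AvrRpt2 alone, GA3OX1 fell at 300 min. Of the 7 genes, 0 passed the test at 60, 120 and 180 min, where 0.00597%, 0.0835% and 4.03% of all genes did. At 300 min 1 was lower, beside 9.46% of all genes lower and 24.1% called either way. GA3OX1 had 1.12, 2.34 and 4.94 CPM in Ed leaves, against 5.30, 15.6 and 6.64 CPM in Mock leaves. The values did not overlap, and the log2 fold change was -1.73 ± 0.51 (adjusted p = 0.0104), which did not pass without the Ed library of experiment 1 (adjusted p = 0.102). Without the 4 libraries, which removes the highest Mock value, it was -1.07 ± 0.59 and the call was lost (adjusted p = 0.194). GA2OX6 had 13.5, 21.1 and 27.0 CPM in Ed leaves at 300 min, all above the Mock values. Its log2 fold change of 2.47 ± 0.99 missed the threshold (adjusted p = 0.061), and one of 1.96 ± 0.65 passed without the 4 libraries (adjusted p = 0.0257). At 60 min GA2OX6 in Ed leaves, with 76.6, 89.1 and 141 CPM, overlapped Mock leaves (log2 fold change 0.63 ± 0.81, adjusted p = 0.898). The AvrRpt2 transgene's own transcript was not analysed here. All groups carried the transgene. Wherever leaves with and without Ed are compared, an effect of estradiol itself therefore cannot be told apart from that of AvrRpt2.

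With both elicitors GA20OX1 fell at 120 and 300 min, GA20OX3 at 180 min, GA3OX1 at 180 and 300 min and the receptor gene GID1A at 300 min, and GA2OX6 rose at 180 and 300 min. Of the 7 genes, 0 passed at 60 min (6.84% of all genes did), and 1 was lower at 120 min (4.98% of all genes were lower). At 180 min 2 were lower and 1 higher (14.5% and 18%), and at 300 min 3 were lower and 1 higher (30.5% and 27.9%). The 4 of 7 called at 300 min thus stand beside 58.4% of all genes. The median log2 fold change of the 7 genes at 300 min was -2.03 (GA20OX3, with 2 and 8 counts), beside -0.08 for all genes tested; it includes GA2OX8, which had 1 count in flg22+Ed leaves and 0 in Mock leaves. The summed level of the 5 mesophyll markers at that time was 8158 to 12290 CPM in flg22+Ed leaves, against 38000 to 42100 CPM in Mock leaves, and its part in the results was not tested. In these bulk samples fewer cells of a type and less RNA per cell cannot be told apart.

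GA3OX1 had 1.17, 0.387 and 0.806 CPM in flg22+Ed leaves at 300 min (5, 1 and 3 counts), against 5.30, 15.6 and 6.64 CPM in Mock leaves, with no overlap. GA3OX1 changed by -3.42 ± 0.62 on the log2 scale (adjusted p = 7.47e-06), and by -2.73 ± 0.70 (adjusted p = 0.000961) without the 4 libraries. At 180 min, a time at which no library stood apart, it had 6.45, 2.93 and 1.92 CPM in flg22+Ed leaves and 13.2, 15.9 and 11.5 CPM in Mock leaves. The difference on the log2 scale was -1.82 ± 0.50 (adjusted p = 0.00404; 0.058 without the flg22+Ed library of experiment 3). GA3OX1 levels at these 2 times thus fell below the range of Mock leaves in every experiment.

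GA20OX3 was again below Mock leaves at the time of their peak, with 0.293, 0.733 and 0.719 CPM in flg22+Ed leaves at 180 min (1, 1 and 3 counts) against 4.62, 9.85 and 6.01 CPM in Mock leaves. The difference was -3.55 ± 0.75 on the log2 scale (adjusted p = 0.000282). At 120 min it was -2.33 ± 0.92 (adjusted p = 0.0817; 0.0478 without the 4 libraries). GA20OX1, the 20-oxidase gene known for its part in stem elongation, had 1, 0 and 1 counts in flg22+Ed leaves at 300 min and 12, 8 and 3 counts in Mock leaves. The ratio of summed levels was 0.0735, with a 95% counting interval of 0.00839 to 0.297 (adjusted p = 0.00411). At 120 min it had 1, 0 and 0 counts against 11, 7 and 0 counts (adjusted p = 0.0427), so that this call rests on experiments 1 and 2. It was lost without the Mock library of experiment 1 or 2 or the flg22+Ed library of experiment 2 or 3 (adjusted p = 0.0895 to 0.237).

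GA2OX6 had 65.4, 70.8 and 66.6 CPM in flg22+Ed leaves at 300 min, against 4.18, 0.884 and 6.64 CPM in Mock leaves. The 3 treated values lay close together and above every Mock value, and the log2 fold change was 4.19 ± 1.00 (adjusted p = 0.000401), or 3.70 ± 0.66 without the 4 libraries (adjusted p = 7.55e-06). At 180 min it was 3.11 ± 0.89 (adjusted p = 0.00596). GID1A had 11, 8.12 and 10.2 CPM in flg22+Ed leaves at 300 min, against 30.7, 5.60 and 29.1 CPM in Mock leaves, the low Mock value being the library that stood apart. GID1A changed by -1.13 ± 0.48 on the log2 scale (adjusted p = 0.0424), with lower levels in 2 of 3 experiments, and by -1.58 ± 0.40 (adjusted p = 0.000734) in the fit that left the 4 libraries out. With all libraries kept, leaving out any 1 of the 6 but the Mock library of experiment 2 ended the call (adjusted p = 0.0648 to 0.254), as did DESeq2 (0.0514), limma-voom (0.18), relative log expression factors (0.0549), library sizes alone (0.0602) and a fit of only the groups compared (0.122). At 180 min GID1A passed with the experiment as a block (-1.16, adjusted p = 0.0411) and missed the threshold without it (-1.12 ± 0.48, adjusted p = 0.0672). Without the 4 libraries, none of which is in the groups of 180 min, the adjusted p was 0.0127. In flg22 leaves and in Ed leaves GID1A averaged 16.1 ± 2.91 and 17.6 ± 3.38 CPM at 300 min (SD, n = 3) and passed the test in neither (adjusted p = 0.51 and 0.699).

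**Figure D3:**
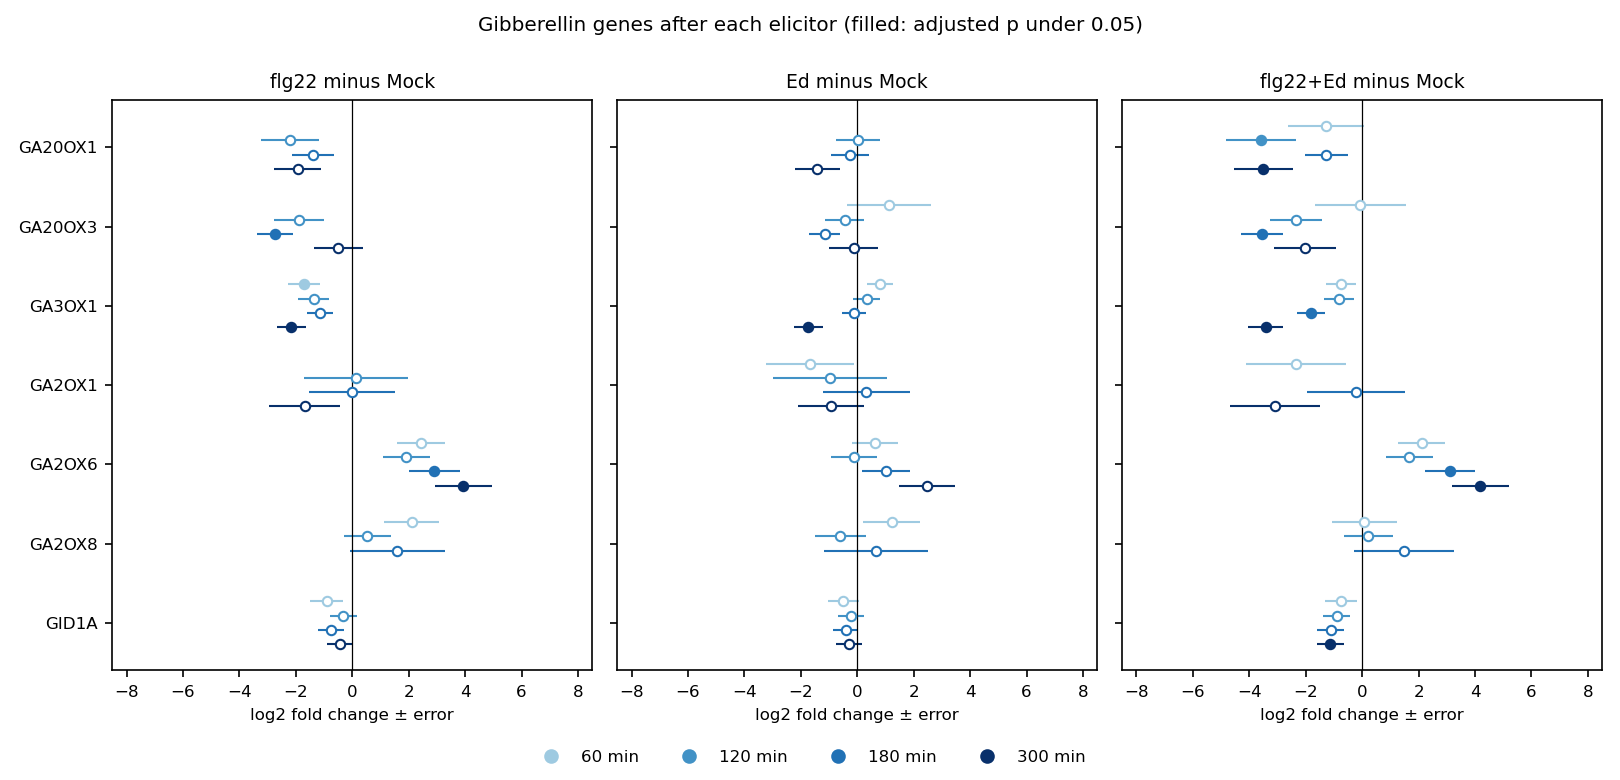
Log2 fold change over Mock of the same time for the 7 tested genes after flg22, Ed and flg22+Ed, with its error; filled points have an adjusted p under 0.05, and points where 1 of the groups had 0 counts are not drawn. After flg22+Ed at 300 min, GA3OX1 and GID1A lie to the left (-3.42 and -1.13) and GA2OX6 to the right (4.19).

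What each elicitor added to the other was asked directly. Adding flg22 to induced AvrRpt2 lowered 2 genes at 180 min, beside 5.66% of all genes, and 0 passed at 60, 120 and 300 min, beside 1.77%, 7.22% and 33.5% of all genes. GA3OX1 had 6.45, 2.93 and 1.92 CPM in flg22+Ed leaves, against 10.0, 17 and 11 CPM in Ed leaves, without overlap (log2 fold change -1.72 ± 0.50, adjusted p = 0.0145). GA20OX3 had 0.293, 0.733 and 0.719 CPM in flg22+Ed leaves, against 2.78, 2.35 and 4.14 CPM in Ed leaves (-2.40 ± 0.79, adjusted p = 0.0328). The GA3OX1 call was lost without the flg22+Ed library of experiment 2 or 3 or the Ed library of experiment 2 (adjusted p = 0.0595 to 0.142), and the GA20OX3 call without any 1 of the flg22+Ed libraries or the Ed library of experiment 3 (0.0717 to 0.13). With the experiment as a block 4 pairs of gene and time passed, GA20OX1 at 120 min (adjusted p = 0.0375) and GA3OX1 at 300 min (0.05 after rounding) being added to these 2. GA2OX6 was higher in flg22+Ed than in Ed leaves in 3 of 3 experiments at each of the 4 times, by 1.47 to 2.09 on the log2 scale, and 0 of these passed with all libraries (adjusted p = 0.523, 0.197, 0.0833 and 0.111 in order of time). Without the 4 libraries all 4 passed (adjusted p = 0.0491, 0.00627, 0.0011 and 0.0032, at times where 3.29%, 9.39%, 13.3% and 18.9% of all genes were then higher). None of the 4 libraries is in the groups compared here. At each time the difference hardly moved and its error fell, from 1.47 ± 0.81 to 1.49 ± 0.45 at 60 min.

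Adding induced AvrRpt2 to flg22 moved 0 of the 7 genes past the threshold at each of the 4 times in edgeR's quasi-likelihood test, with a smallest adjusted p of 0.243 (GA3OX1 at 300 min). In order of time 0%, 0.00597%, 0.483% and 14% of all genes passed. At an unadjusted p under 0.05 there was 1 of the 28 pairs of gene and time, GA2OX8 at 60 min. No share of all genes is given at that unadjusted threshold, so the pair is not read as a result. For GA3OX1 at 300 min the flg22+Ed values of 1.17, 0.387 and 0.806 CPM lay below the flg22 values of 1.73, 1.60 and 2.94 CPM, and the log2 fold change was -1.26 ± 0.70. For GA2OX6 it was 0.26 ± 0.81 at 300 min, and the values overlapped. A test of whether the response to both departed from the sum of the single log2 responses passed for 0 of the 28 pairs (smallest adjusted p = 0.543, GA2OX6 at 300 min). In order of time 0%, 0%, 0.00597% and 1.51% of all genes passed. At an unadjusted p under 0.05, again with no share of all genes given and not read as a result, there were 2 pairs, GA20OX1 and GA2OX8 at 60 min. GA20OX1 then had 0 counts in flg22 leaves, 0 in Ed leaves, 2 in flg22+Ed leaves and 5 in Mock leaves, so no size is given. Both this test and that of AvrRpt2 added to flg22 use flg22 leaves, for which no ethanol is listed, so ethanol may differ in them too.

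The remaining levels were low. GA20OX2, a 20-oxidase gene, reached its highest counts at 180 min, with 2.59, 0.508 and 1.28 CPM in flg22 leaves, 0.834, 0.784 and 0 CPM in Ed leaves, 1.76, 0.733 and 0.24 CPM in flg22+Ed leaves and 0.693, 2.81 and 1.09 CPM in Mock leaves. The groups overlapped. These Mock libraries held 19 counts of GA20OX2, against 3 counts in the 12 untouched libraries, a ratio of summed levels of 23.1 with a 95% counting interval of 6.81 to 122. These 2 groups did not overlap, and the gene was not in the fit. It was at 0 counts in 31 of 60 libraries, GA2OX8 in 28 and GA2OX1 in 26. At 60 min GA2OX8 had 15, 7 and 3 counts in flg22 leaves, 11, 6 and 0 in Ed leaves, 6, 1 and 0 in flg22+Ed leaves and 5, 0 and 1 in Mock leaves. It passed the test against Mock at no time. At 300 min it had at most 1 count in any library. At 300 min GA2OX1 had 2, 2 and 0 counts in flg22 leaves, 5, 1 and 0 in Ed leaves, 1, 0 and 0 in flg22+Ed leaves and 3, 7 and 0 in Mock leaves. The groups overlapped, and the smallest adjusted p against Mock was 0.0905 (flg22+Ed). Differences of GA2OX8 after 120 min, and of GA2OX1 between infiltrated groups before 300 min, were not detectable at this depth.

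In the order of its 20 group means, GA2OX6 led in flg22 (358 ± 110 CPM) and flg22+Ed (284 ± 52.0 CPM) at 60 min, then in flg22 (180 ± 34.8 CPM) and flg22+Ed (152 ± 60.1 CPM) at 120 min. Within each time the 2 groups overlapped, while every value at 60 min (246 CPM or more) was above every value at 120 min (214 CPM or less). GA3OX1 was highest in Mock (13.5 ± 2.22 CPM) and Ed (12.7 ± 3.77 CPM) at 180 min and Ed at 60 min (12.1 ± 6.62 CPM), which overlapped. It was lowest in flg22+Ed at 300 min (0.788 ± 0.393 CPM). GID1A was highest in Mock at 180 min (28.2 ± 4.88 CPM), followed by Mock at 300 min (21.8 ± 14.1 CPM) and Ed at 180 min (21.1 ± 4.31 CPM), 3 groups that overlapped. Mock at 300 min came first, with a mean of 29.9 CPM (29.1 and 30.7 CPM), when the 4 libraries were left out. GID1A was lowest in flg22 at 60 min (4.29 ± 1.73 CPM), all with n = 3 and SD. GA20OX3 at 180 min in Mock (6.83 ± 2.71 CPM) and Ed (3.09 ± 0.933 CPM) had means above those of its 18 other groups, which were at most 1.64 CPM. The Ed values at 180 min (2.35 to 4.14 CPM) overlapped those of Mock at 120 min (up to 2.56 CPM).

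Over the 20 group means of log2 CPM, the genes with the pattern most like that of GA2OX6 were AT1G13390 (r = 0.986), FLS2, the flg22 receptor (r = 0.983), and AT1G19380 (r = 0.981), out of 15277 genes ranked. Those most like GA3OX1 were PIN3, an auxin efflux carrier (r = 0.921), AT5G58990 (r = 0.908) and AT1G64355 (r = 0.905). For GA20OX3 they were AT4G33380 (r = 0.892), UGE1, a UDP-glucose epimerase (r = 0.886), and XERICO, a RING protein gene induced by DELLA proteins (r = 0.877). For GID1A they were AT4G21215 (r = 0.956), AT2G28720, annotated as a histone gene (r = 0.949), and MGT9, a magnesium transporter (r = 0.947). The 20 groups share experiments, libraries and harvest times, so these correlations describe likeness only. The ranks changed without the 4 libraries: XERICO came first for GA20OX3 and UGE1 came 15th, AT1G64355 came 13th for GA3OX1, and the genes named for GA2OX6 were 5th, 4th and 3rd. With a prior count of 0.5, XERICO was 20th for GA20OX3.

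The rest of the pathway was read from lists chosen by function, also with earlier results of these data known. Of the 5 listed genes of earlier synthesis steps, 4 were tested (GA2, GA3, KAO1 and KAO2). At 300 min all 4 were lower in flg22 and in flg22+Ed leaves, beside 20.9% and 30.5% of all genes lower. In Ed leaves KAO1 and KAO2 were lower, beside 9.46% of all genes. GA2, the ent-kaurene synthase gene, averaged 4.12 ± 0.731 CPM in flg22, 12.6 ± 2.11 CPM in Ed, 2.71 ± 1.11 CPM in flg22+Ed and 14.1 ± 8.64 CPM in Mock leaves (SD, n = 3). Its log2 fold changes were -1.76 (adjusted p = 0.00184), -0.17 (0.823) and -2.33 (7.28e-05). KAO2, an ent-kaurenoic acid oxidase gene, averaged 7.87 ± 1.04, 8.33 ± 1.01, 4.18 ± 1.35 and 14.4 ± 1.38 CPM in the same groups. The list's median log2 fold change was -1.04 for flg22, -0.47 for Ed and -1.62 for flg22+Ed, beside -0.05, -0.08 and -0.08 for all genes. The GA3 call in flg22+Ed leaves was lost without any 1 of 4 of its 6 libraries (adjusted p up to 0.183, without the flg22+Ed library of experiment 1). It was also lost under 5 of 9 other settings, DESeq2 among them (up to 0.102). The KAO2 call in flg22 leaves was lost with library sizes alone (0.0523). In Ed leaves the KAO1 and KAO2 calls were lost under 2 and 3 of the 9 settings (up to 0.11 and 0.0747). The KAO1 and KAO2 calls in Ed leaves were lost without the Mock or the Ed library of experiment 2 (up to 0.118 and 0.101), and that of KAO2 also without the Ed library of experiment 1 (0.0911) or the Mock library of experiment 3 (0.0784). The GA2 and GA3 calls in flg22 leaves were lost without the Mock library of experiment 1 (0.0678 and 0.0562), and that of GA3 also without the flg22 library of experiment 2 (0.0711). The 5 other late oxidase genes (GA20OX4, GA20OX5, GA3OX2, GA3OX3 and GA3OX4) were too low to test.

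Among 10 other listed genes of gibberellin inactivation only GA2OX2, a 2-oxidase gene, had the counts to be tested, and it rose in Ed and flg22+Ed leaves at 180 and 300 min. It averaged 1.63 ± 0.900 CPM in flg22, 91.7 ± 41.7 CPM in Ed, 103 ± 26.5 CPM in flg22+Ed and 1.21 ± 1.60 CPM in Mock leaves at 300 min (SD, n = 3). Its log2 fold changes were 0.73 ± 1.24 (adjusted p = 0.68), 6.55 ± 0.96 (1.29e-06) and 6.72 ± 0.96 (9.7e-08). At 180 min it was already higher in Ed leaves (4.24 ± 0.97, adjusted p = 0.00358) and in flg22+Ed leaves (5.17 ± 0.96, adjusted p = 4.56e-05). At 60 min it was higher in flg22 leaves (2.33 ± 0.79, adjusted p = 0.0499; 0.179 without the 4 libraries). GA2OX6 and GA2OX2 thus had their highest levels at opposite ends of the time course, at 60 min in flg22 leaves and at 300 min in flg22+Ed leaves.

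Of 10 tested perception genes, 1 was higher and 3 were lower in flg22, 1 higher and 2 lower in Ed, and 1 higher and 4 lower in flg22+Ed leaves at 300 min. Of all genes, 14.7% were higher in Ed leaves at that time, and the other shares were as above. The higher gene was GID1B each time, another receptor gene. It averaged 9.69 ± 2.11, 9.67 ± 5.62 and 18.1 ± 4.00 CPM in flg22, Ed and flg22+Ed leaves and 1.97 ± 1.42 CPM in Mock leaves (SD, n = 3; log2 fold changes 2.15, 2.14 and 3.04; adjusted p = 5.09e-05, 0.000113 and 2.2e-08). The DELLA genes GAI and RGA were lower in all 3 comparisons. GAI averaged 18.8 ± 6.60, 27.8 ± 7.22 and 8.96 ± 1.40 CPM in these groups and 47.6 ± 12.3 CPM in Mock leaves (log2 fold changes -1.33, -0.77 and -2.39). The calls of both in Ed leaves were lost without the Ed library of experiment 1 (adjusted p = 0.196 and 0.191). That of GAI was also lost without the Ed library of experiment 2 (0.0517) or the Mock library of experiment 3 (0.153), and that of RGA without the Mock library of experiment 2 (0.0667). RGL1, another DELLA gene, was lower in flg22 and flg22+Ed leaves (-1.48 and -2.52; adjusted p = 0.0107 and 7.62e-05), and GID1C, a further receptor gene, in flg22+Ed leaves (-1.12, adjusted p = 0.0121). Each of the RGL1 call in flg22 leaves and the GID1C call was lost without either of 2 libraries (adjusted p up to 0.132 and 0.146).

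Of 3 listed genes of gibberellin transport 2 were tested, and both were lower at 300 min after flg22, Ed and flg22+Ed, beside 20.9%, 9.46% and 30.5% of all genes lower. NPF3.1, a gibberellin importer, averaged 11.4 ± 1.62, 6.81 ± 0.737 and 5.77 ± 4.08 CPM in flg22, Ed and flg22+Ed leaves and 41.1 ± 23.3 CPM in Mock leaves. Its log2 fold changes were -1.86, -2.60 and -2.77, and the call in flg22 leaves was lost without the Mock library of experiment 2 (-1.29, adjusted p = 0.0945). SWEET13, a sugar transporter that also carries gibberellin, averaged 1.59 ± 0.287, 1.65 ± 0.186 and 0.699 ± 0.416 CPM and 8.00 ± 2.55 CPM in Mock leaves (-2.34, -2.27 and -3.38). Of 6 tested genes known to be induced by DELLA proteins, 3 were higher and 1 lower in flg22 leaves (19.2% and 20.9% of all genes) and in flg22+Ed leaves (27.9% and 30.5%), and 1 was higher in Ed leaves (14.7%). WRKY27, a WRKY factor gene, averaged 85.7 ± 16.4, 1.67 ± 0.337 and 61.9 ± 16.6 CPM in flg22, Ed and flg22+Ed leaves and 3.1 ± 1.06 CPM in Mock leaves (4.76, -0.89 and 4.29; adjusted p = 2.51e-11, 0.245 and 6.81e-11). AT2G31730, annotated as a basic helix-loop-helix gene, was higher in all 3 (2.85, 1.65 and 2.53). BOI, a RING protein gene, was higher in flg22 and flg22+Ed leaves (1.18 and 0.85) and XERICO was lower in both (-1.02 and -1.36). The calls of AT2G31730 in Ed leaves and of BOI in flg22+Ed leaves were lost without any 1 of their 6 libraries (adjusted p up to 0.145 and 0.103). That of XERICO in flg22 leaves was lost without any 1 of 5 (up to 0.163), and that of BOI in flg22 leaves without the flg22 library of experiment 3 (0.0533).

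Of 5 tested gibberellin-induced genes, 2 were lower in flg22 leaves (GASA6, and GASA1 at an adjusted p of 0.05 after rounding), 0 passed in Ed leaves and 4 were lower in flg22+Ed leaves (GASA1, GASA6, GASA14 and EXPA8) at 300 min. Of all genes, 20.9% were lower in flg22 leaves, 9.46% in Ed leaves and 30.5% in flg22+Ed leaves. EXPA8, which encodes a cell-wall-loosening expansin, averaged 6.22 ± 3.77 CPM in flg22+Ed leaves and 83.8 ± 59.4 CPM in Mock leaves (SD, n = 3; log2 fold change -3.74 ± 0.84, adjusted p = 0.000198). GASA6, a small secreted protein gene, averaged 42.4 ± 33.3 CPM in flg22+Ed leaves and 267 ± 72.2 CPM in Mock leaves (-2.64 ± 0.54, adjusted p = 4.94e-05). In flg22 leaves the GASA1 call was lost without any 1 of its 6 libraries and the GASA6 call without any 1 of 3 (adjusted p up to 0.187 and 0.106). In flg22+Ed leaves the GASA1 and GASA14 calls were lost without any 1 of 3 and 2 libraries (up to 0.107 and 0.22). Without the 4 libraries EXPA8 was lower in flg22 leaves, where GASA1 and GASA6 lost their calls. In flg22+Ed leaves GASA1 then lost its call. Of the earlier synthesis genes, KAO1 lost its call in Ed leaves (adjusted p = 0.0732), and BOI lost its call in flg22+Ed leaves (adjusted p = 0.093). The mesophyll marker genes were lower as well, 5 of 5 in flg22 and in flg22+Ed leaves and 2 of 5 in Ed leaves, and their part in these counts was not tested.

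**Figure D4:**
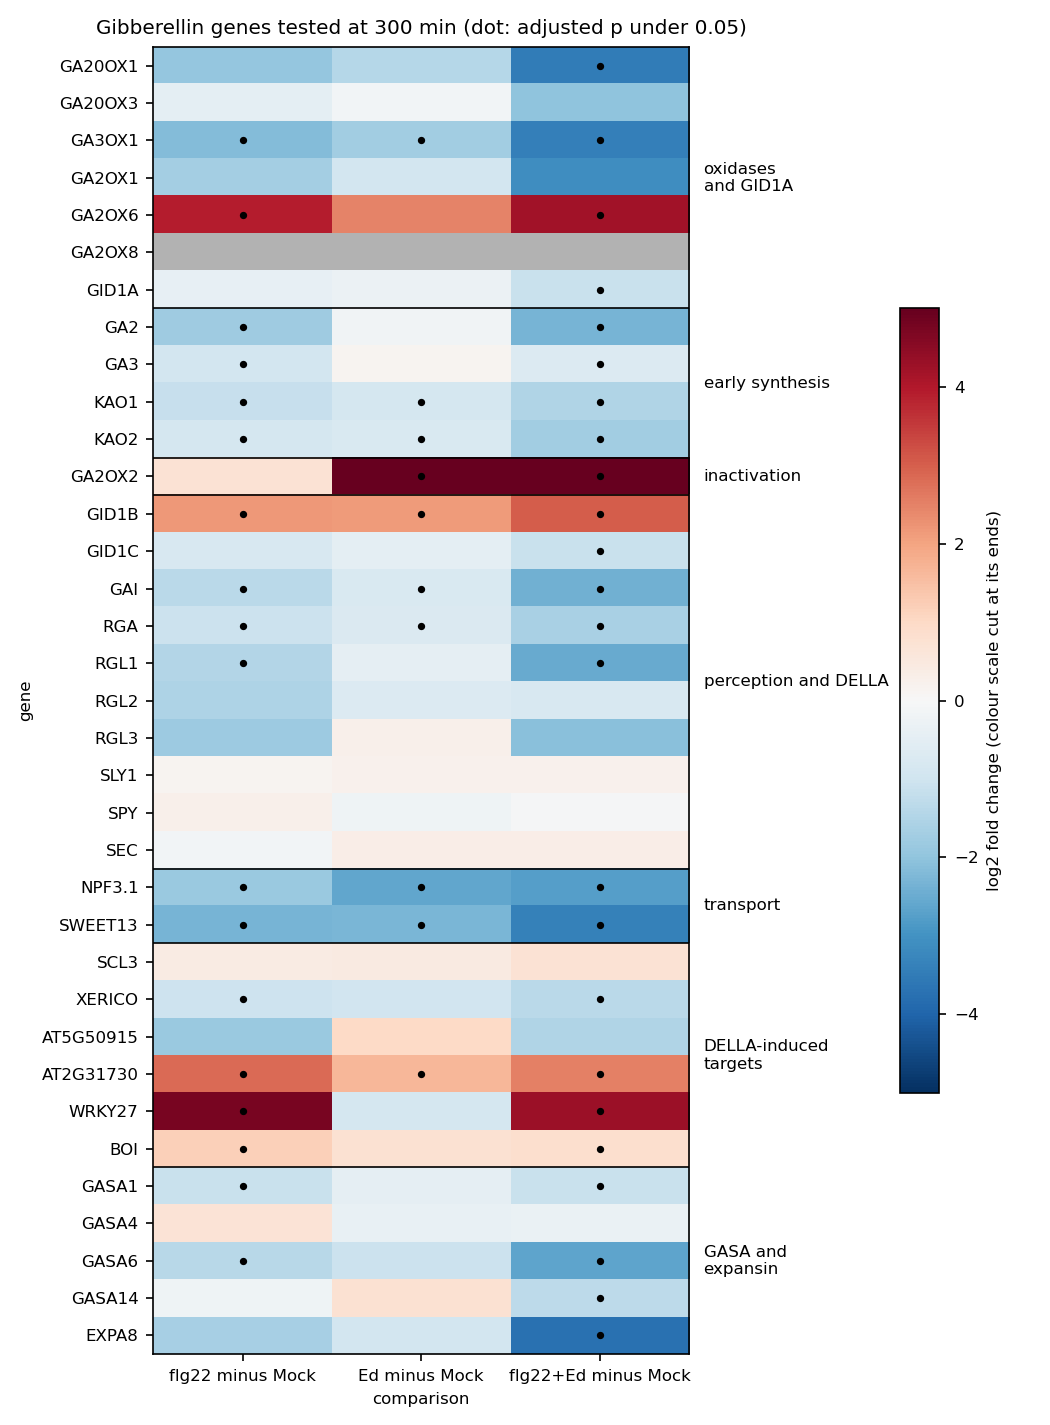
Log2 fold change over Mock at 300 min of each tested gibberellin gene (rows, grouped by list) after flg22, Ed and flg22+Ed (columns); a dot marks an adjusted p under 0.05, and grey cells had 0 counts in 1 group or no more than 3 in both. GA2OX6, GID1B and WRKY27 are higher after flg22+Ed (4.19, 3.04 and 4.29), GA2OX2 reaches 6.72, and GA3OX1 and EXPA8 are lower (-3.42 and -3.74).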

How the data were processed

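Transcript 3′ ends were counted by Smart-3SEQ in 60 leaf libraries; per the labels' protocols, reads began with a 5-base molecular identifier, and 8 bases were to be trimmed. Whether duplicates were collapsed and strand used is not given in the sources used here. The authors deposited raw counts per gene, and the submitters' processing notes name bcl2fastq 2.17.1.14, STAR 2.4.2a and TAIR10. The 8 genes and all lists were chosen with earlier results of these data known. Counts were fitted with edgeR 4.0.16 (R 4.3.3): filterByExpr, trimmed mean of M-values factors (0.803 to 1.15), 20 groups, no block, 40 residual degrees of freedom, the quasi-likelihood F test and Benjamini-Hochberg adjustment over 16763 genes in each of 28 contrasts, threshold 0.05. The same fit was tested on simulated data, in which only better-counted genes were changed and all genes had the same spread. That test does not cover genes at a few counts per library. Untouched leaves were the mean of 4 groups of 3 libraries. Intervals cover counting error only, and a count of 0 allows up to 3 counts per library (0.603 to 2.20 CPM). Replicate numbers mark independent experiments: same-numbered libraries of matched groups had a median residual correlation of 0.108 (72 pairs) against -0.0732 between experiments (144 pairs), so the numbers pair the samples, and the fit with the block is an alternative. From each list, up to 2 genes per comparison at 300 min were named (largest change past the threshold, at least 5 CPM, same direction in 3 experiments). The 3 genes most alike (prior count 2) were named for each tested gene of the 8 with a mean of at least 5 CPM in some group. GA20OX3 reached that mean in Mock at 180 min only (6.83 CPM). GA3, RGA, GID1C, BOI, GASA1 and GASA14 were named to complete counts, after their values were seen. Alternatives were limma-voom 3.58.1, DESeq2 1.42.0, other scalings and filters, the block, and leaving out libraries. No protein sequences were used here. No 2 libraries held identical counts.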

Additional observations from a re-analysis of the deposited data

Results flagged for a closer look

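GA3OX1 after Ed had opposite directions at the first and the last time. At 60 min it had 19.7, 7.66 and 8.95 CPM in Ed leaves, against 9.84, 6.83 and 3.73 CPM in Mock leaves, higher in 3 of 3 experiments (log2 fold change 0.81 ± 0.46, adjusted p = 0.851). At 300 min it was lower in 3 of 3 experiments, by -1.73 ± 0.51. What drew attention was that every experiment moved one way at 60 min and the other way at 300 min; the difference between the times was not tested, and the Mock values of experiment 2 at both times come from libraries that stood apart on LHY.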

How the results depend on the processing

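The counts of gene and time pairs called among the 8 genes were recomputed under 9 other settings and with each library left out. With all libraries they were 5 for flg22, 1 for Ed and 8 for flg22+Ed against Mock, 0 for flg22+Ed against flg22, 2 for flg22+Ed against Ed, 0 for the departure from the sum of the single responses and 10 for Mock against untouched leaves. Without the 4 libraries that stood apart, 8 pairs were called for flg22+Ed against Ed, though none of the 4 is in those groups. With a filter of 10 CPM in 3 libraries, under which 3 of the 8 genes (GA2OX6, GA3OX1 and GID1A) are tested, there were 5 for flg22+Ed against Mock and 6 for Mock against untouched leaves. DESeq2 gave 2 for Ed against Mock, and limma-voom gave 9 for flg22 against Mock and 6 for Mock against untouched leaves. Fitted with only the groups compared, which leaves fewer libraries to estimate the spread, the counts were 1 for flg22+Ed against flg22, 5 for flg22+Ed against Ed, 1 for the departure from the sum (GA2OX6 at 300 min, -2.31, adjusted p = 0.0345) and 3 for Mock against untouched leaves. Apart from the fewer genes or libraries named, the cause was not tested. No share of all genes called under the same setting is set beside the counts of pairs in this paragraph. These counts therefore do not show whether calls among the 8 genes changed apart from those of all genes. With the replicate block (the experiment as a block) 4 pairs were called for flg22+Ed against Ed; it ended no call among the 8 genes, and the 7 calls it added stand beside their results or, for GA3OX1 in flg22+Ed against Ed leaves at 300 min (-1.71), with them. Leaving out 1 library at a time gave 3 to 7 pairs for flg22 against Mock, 0 to 2 for Ed against Mock, 7 to 9 for flg22+Ed against Mock, 0 for flg22+Ed against flg22, 0 to 4 for flg22+Ed against Ed, 0 for the departure from the sum and 7 to 14 for Mock against untouched leaves; where this left a group with 2 libraries, the spread was shared over all groups. No called value of the 8 genes or of the pathway lists changed sign under any setting. Among the calls that passed under every setting in which they were tested were GA20OX3 at 180 min and GA2OX6 and GA3OX1 at 300 min, each in flg22+Ed against Mock leaves. Library sizes alone moved the median log2 fold change of all genes by more than 0.1 in some comparisons, and by between -0.118 (flg22+Ed against Mock at 60 min) and 0.149 (flg22 against Mock at 300 min) at the extremes. The higher and lower calls were then 901 and 873 in place of 1081 and 567 (flg22 at 60 min), 3840 and 2754 in place of 3221 and 3503 (flg22 at 300 min), 693 and 621 in place of 797 and 349 (flg22+Ed at 60 min), 2782 and 2914 in place of 3011 and 2433 (flg22+Ed at 180 min), 1433 and 1427 in place of 1624 and 948 (flg22+Ed against Ed at 180 min), 3180 and 711 in place of 2297 and 1160 (Mock against untouched leaves at 120 min), and 2355 and 641 in place of 1467 and 935 (the same at 180 min). The pathway lists, whose alternatives were chosen after seeing the data, held 45 calls against Mock at 300 min, of which 31 were kept under all of the 9 settings that tested the gene and 27 whichever library was left out. Depth limits GA20OX2, GA2OX8 and GA2OX1 most, whose levels lie at a few counts per library.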
